A study of Mus musculus with 18 samples.

Results

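The annexins are described here with *S100a10* and *S100a11*, the genes of the S100 proteins that pair with annexins, in livers of mice fed a high-fat diet (HFD). The group holds 10 genes of the 23328 gene symbols kept in the tables, namely *Anxa1*, *Anxa2*, *Anxa3*, *Anxa4*, *Anxa5*, *Anxa6*, *Anxa7*, *Anxa11*, *S100a10* and *S100a11*. It was chosen because *Anxa5* is lower in *Gpr180*KO livers of these same mice, so the genotype differences of the 10 genes are given as a description, with no p-value, and counts of calls among them support nothing. Liver poly(A) RNA came from 9 wild-type (WT) and 9 *Gpr180*KO mice, all male, 20 weeks old and fed HFD for 12 weeks from 8 weeks of age, with 1 library per mouse. The *Gpr180*KO mice carried a whole-body deletion of exon 6 made with CRISPR/Cas9 in fertilized C57BL/6J eggs, which shifts the reading frame and leaves a shortened mRNA. The wild-type and *Gpr180*KO livers shared the diet, sex and age, so no value here bears on the diet itself. Values are FPKM, which scale the fragments of a gene by its exon length and by the mapped reads of the library and so can be compared between genes.

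Annexins are cytosolic proteins that bind membranes rich in acidic phospholipids, such as phosphatidylserine, when calcium rises. Several of them work as pairs with small calcium-binding proteins of the S100 family: annexin A2 with S100A10, and annexin A1 with S100A11. They take part in membrane repair, vesicle traffic and the organization of the cell cortex, and in liver they are made by hepatocytes and by the non-parenchymal cells in differing amounts. In bulk liver RNA, fewer cells of a type and less RNA per cell cannot be told apart.

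*Gpr180* itself averaged 6.79 ± 1.99 FPKM in wild-type livers against 1.60 ± 0.37 FPKM with the deletion (SD, n = 9 each), and its ranges did not overlap. The sample titles have 2 styles, here called series 1 and series 2, with 4 and 5 mice of each genotype. Nothing in the labels says what the styles stand for. The sum of FPKM over all genes was 554796 to 629067 in 17 libraries and 718746 in KO51, a *Gpr180*KO mouse of series 2, which also had the highest *Cfd*, a gene of adipocytes, at 278 FPKM against at most 97.1 in the other livers. Values are therefore also given without KO51 below. Of the other adipocyte markers listed, *Plin1* was at 0 in every library and *Lep* at 0 in every *Gpr180*KO liver. *Adipoq* and *Retn* reached at most 0.09 and 1.26 FPKM in *Gpr180*KO livers. Whether KO51 held adipose tissue was not tested. Relative sequencing depth ranged from 44.3% to 100% of the deepest library. All 10 genes had an accepted estimate in every library and passed the minimum mean of 1 FPKM in the fit across 10835 genes.

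The upstream sequences of the members whose levels followed each other most closely from liver to liver are shown first. They are the 250 bases before the RefSeq transcript start (GRCm38.p6), read 5′ to 3′ on the strand of the gene, and capitals mark matches to any of 4 motifs searched on both strands. The motifs were TGAGTCA for AP-1, GGGCGG for the GC box, TATAAA for a TATA element and TCACCCCAC for the sterol regulatory element, chosen after these sequences were seen, and no match overlapped another. *Anxa1* is at chr19:20390672-20390921, minus strand, *Anxa2* at chr9:69453433-69453682, plus strand, *Anxa5* at chr3:36475888-36476137, minus strand, and *S100a11* at chr3:93520246-93520495, plus strand.
Anxa1: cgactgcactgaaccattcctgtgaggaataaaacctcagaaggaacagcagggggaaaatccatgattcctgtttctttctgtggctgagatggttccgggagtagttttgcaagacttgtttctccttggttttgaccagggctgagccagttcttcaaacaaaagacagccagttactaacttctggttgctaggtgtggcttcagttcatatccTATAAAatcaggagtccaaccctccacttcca
Anxa2: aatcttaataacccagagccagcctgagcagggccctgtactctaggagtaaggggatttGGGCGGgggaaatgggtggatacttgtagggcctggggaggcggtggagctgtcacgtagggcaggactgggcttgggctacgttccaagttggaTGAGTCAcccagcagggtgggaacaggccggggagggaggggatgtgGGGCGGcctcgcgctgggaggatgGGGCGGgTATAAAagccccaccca
Anxa5: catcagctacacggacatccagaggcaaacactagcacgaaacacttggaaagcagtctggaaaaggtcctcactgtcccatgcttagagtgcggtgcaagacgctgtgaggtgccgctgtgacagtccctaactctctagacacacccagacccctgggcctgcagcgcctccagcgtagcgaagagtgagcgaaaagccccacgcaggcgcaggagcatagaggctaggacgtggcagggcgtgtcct
S100a11: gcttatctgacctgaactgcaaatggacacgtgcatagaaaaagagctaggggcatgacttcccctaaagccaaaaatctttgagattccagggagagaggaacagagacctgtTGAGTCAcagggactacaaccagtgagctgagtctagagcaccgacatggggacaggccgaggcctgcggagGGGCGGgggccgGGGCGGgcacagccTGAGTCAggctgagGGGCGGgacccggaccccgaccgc

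*Anxa1* held 1 TATA box, 32 to 27 bases before its start. *Anxa2* held 1 AP-1 motif, 95 to 89 bases before the start, 3 GC boxes and a TATA box 17 to 12 bases before it. *S100a11* held 2 AP-1 motifs, the nearer 38 to 32 bases before the start, and 3 GC boxes. The *Anxa5* window held none of the 4 motifs. Of the other members with a sequence, *Anxa7* and *Anxa11* also held GC boxes, and *Anxa4* held none of the 4 motifs. Of the 32851 windows of the same length, 4.46% held the AP-1 motif, 32.7% the GC box, 12.4% the TATA box and 0.496% the sterol regulatory element, which was in none of the members' windows. A match is a run of letters only. The sequence table matched 7 of the 10 genes, and *Anxa3*, *Anxa6* and *S100a10* were not among them.

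The 10 genes differed widely in level. In wild-type livers the order of mean FPKM ran from *S100a10* at 346 ± 73.6 (SD, n = 9) through *Anxa5* at 141 ± 44.6, *Anxa2* at 78.4 ± 42.7, *S100a11* at 72.6 ± 28.5, *Anxa6* at 45.7 ± 6.68, *Anxa7* at 44.4 ± 5.07, *Anxa4* at 29.7 ± 4.53, *Anxa11* at 17.3 ± 1.65 and *Anxa1* at 6.75 ± 3.0 to *Anxa3* at 3.92 ± 1.28. Neighbours in this order were compared within each liver by a two-sided exact sign-flip permutation test over 9 livers, adjusted by Benjamini-Hochberg over the 9 pairs, for which 0.00391 is the smallest p possible. Of the 9 pairs, 6 were told apart. *S100a10* was 2.52 times *Anxa5* and *Anxa5* 2.02 times *Anxa2*, each in 9 of 9 livers (exact p = 0.00391, adjusted p = 0.00703). *Anxa2* and *S100a11* were not told apart (5 of 9 livers in that order, exact p = 1), nor were *S100a11* and *Anxa6* (8 of 9 livers, exact p = 0.043, adjusted p = 0.0552) or *Anxa6* and *Anxa7* (6 of 9 livers, exact p = 0.598).

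In *Gpr180*KO livers the order of the means differed in the middle. That shift restates the genotype differences the group was chosen on, and the change in order was not itself tested. *Anxa2*, at 47.0 ± 23.7 FPKM (SD, n = 9), lay beside *Anxa6* at 44.9 ± 4.65, and the pair was not told apart (exact p = 0.648). *S100a11* stood at 28.8 ± 11.7, between *Anxa7* at 34.9 ± 4.11 and *Anxa4* at 25.4 ± 2.07, and was told apart from neither (exact p = 0.0508 and 0.723). *Anxa1* and *Anxa3*, at 3.27 ± 0.97 and 3.14 ± 0.55, were not told apart (exact p = 0.996). Within wild-type livers *Anxa1* was 1.62 times *Anxa3* (8 of 9 livers, exact p = 0.00781, adjusted p = 0.0117). The deposited FPKM of the shortest genes lay above the middle of their own deposited confidence interval, by a median factor of 1.42 for *S100a10* and 1.56 for *S100a11* over the 18 livers against 1.0 for *Anxa6*. With the interval midpoint as the level, *S100a10* stayed the highest (244 in wild-type livers), at 1.97 times *Anxa5*. By the same measure *S100a11* fell to 45.7, beside *Anxa6* at 45.8, and was told apart from neither neighbour.

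**Figure D1:**
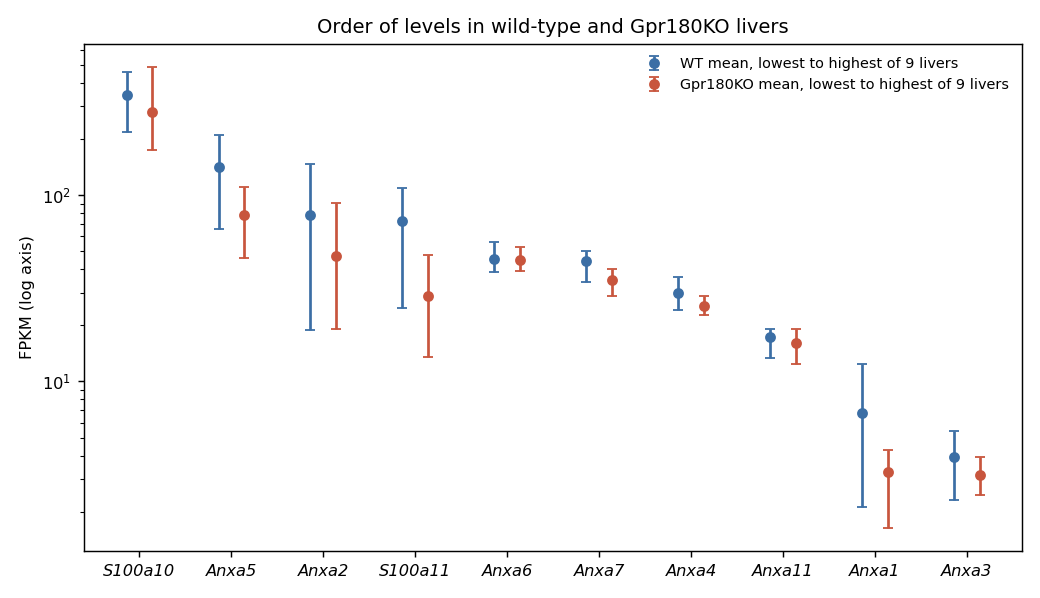
Mean FPKM (log axis) of the 10 genes in wild-type (blue) and *Gpr180*KO (red) livers, in order of the wild-type mean, with bars from the lowest to the highest of 9 livers. The range of *Anxa2* in wild-type livers, 18.9 to 147 FPKM, spans that of *Anxa6* and *Anxa7*, whose bars are short.

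The genotype comparison follows in the order of the genes' roles, first at the cell surface, with gene positions from the tables (GRCm38, mm10). *Anxa5*, whose protein binds phosphatidylserine on the outer face of dying cells and is the usual probe for it, lies at chr3:36448924-36475887. It ran from 65.6 through a median of 131.1 to 211 FPKM in wild-type livers and from 46.0 through 81.7 to 111 FPKM in *Gpr180*KO livers. The groups overlapped, with 8 wild-type livers above the highest *Gpr180*KO liver and only W157 below it. The log2 difference was -0.84 ± 0.21 (SE), and -0.86 without KO51. It was -0.82 ± 0.16 in series 1 and -0.85 ± 0.25 in series 2.

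*Anxa2* lies at chr9:69453683-69491785, and its protein joins S100A10 into a complex that gathers plasminogen and its activators at the cell surface. Its FPKM ran from 18.9 through 74.3 to 147 in wild-type livers and from 19.0 through 42.9 to 90.8 in *Gpr180*KO livers. No *Gpr180*KO liver was below the lowest wild-type liver, and 3 wild-type livers were above the highest *Gpr180*KO liver. The log2 difference was -0.68 ± 0.37 (SE). A microRNA gene, *Mir3109*, overlaps *Anxa2* in the tables.

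*S100a10* lies at chr3:93555117-93564645. It ran from 218 through 375 to 456 FPKM in wild-type livers and from 174 through 271 to 487 FPKM in *Gpr180*KO livers. The highest of all 18 livers was KO51, and the next *Gpr180*KO liver was KO319 at 365 FPKM. The log2 difference was -0.36 ± 0.19 (SE), and -0.47 ± 0.17 without KO51.

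*S100a11*, the partner of annexin A1, lies at chr3:93520496-93526288 and had the log2 difference farthest from 0 of the 10 genes. It ran from 24.8 through 77.4 to 110 FPKM in wild-type livers and from 13.5 through 27.0 to 47.7 FPKM in *Gpr180*KO livers. Of the wild-type livers 7 were above the highest *Gpr180*KO liver, and 4 *Gpr180*KO livers were below the lowest wild-type liver. The log2 difference was -1.32 ± 0.28 (SE), with -1.21 ± 0.22 in series 1 and -1.40 ± 0.42 in series 2. Without KO51, the highest *Gpr180*KO liver, it was -1.42 ± 0.28.

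*Anxa1*, whose protein restrains inflammation by way of the formyl peptide receptors, lies at chr19:20373434-20390671 and was low throughout. Its FPKM ran from 2.11 through 7.17 to 12.4 in wild-type livers and from 1.64 through 3.49 to 4.27 in *Gpr180*KO livers. The 2 wild-type livers not above all *Gpr180*KO livers were W156 at 4.10 and W157 at 2.11 FPKM. The log2 difference was -0.95 ± 0.27 (SE), and -1.01 ± 0.29 without KO51.

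**Figure D2:**
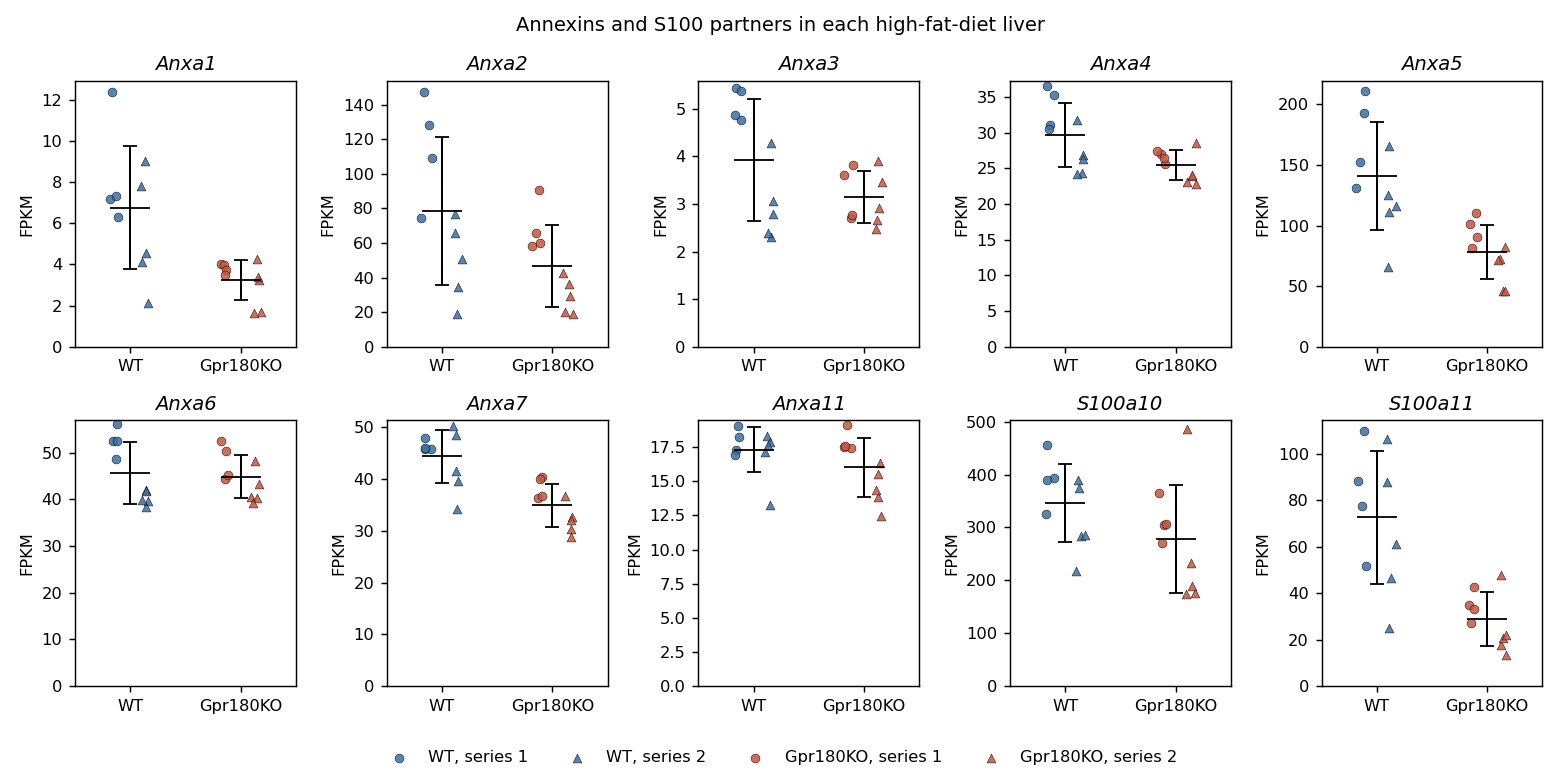
FPKM of the 10 genes in each liver (linear axes from 0), wild-type in blue and *Gpr180*KO in red, circles for series 1 and triangles for series 2, with the mean and SD of 9 livers as a line and bars. In series 1 the *Anxa5* circles of the genotypes are separate, at 131.1 to 211 against 81.7 to 111 FPKM, and the lone high triangle of *S100a10* in *Gpr180*KO is KO51 at 487 FPKM.

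*Anxa7*, which binds the calcium sensor sorcin, lies at chr14:20455261-20480133. It varied little from liver to liver, running from 34.2 through 45.9 to 50.3 FPKM in wild-type livers and from 28.8 through 36.4 to 40.3 FPKM in *Gpr180*KO livers. The log2 difference was -0.35 ± 0.09 (SE), with -0.27 ± 0.05 in series 1 and -0.40 ± 0.12 in series 2. *Anxa4*, an annexin of secretory epithelia, lies at chr6:86736840-86793584. It ran from 24.2 through 30.6 to 36.6 FPKM in wild-type and from 22.8 through 25.7 to 28.6 FPKM in *Gpr180*KO livers, a log2 difference of -0.21 ± 0.09 (SE). The *Anxa4* ranges overlapped, with 5 wild-type livers above the highest *Gpr180*KO liver and 4 *Gpr180*KO livers below the lowest wild-type liver.

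*Anxa3* lies at chr5:96793385-96845968 and had the lowest mean of the 10 genes in both genotypes, beside *Anxa1* in *Gpr180*KO livers. It ran from 2.32 through 4.27 to 5.43 FPKM in wild-type and from 2.47 through 2.91 to 3.91 FPKM in *Gpr180*KO livers, with a log2 difference of -0.26 ± 0.17 (SE). *Anxa6*, a large annexin with a doubled core that hepatocytes make in quantity, lies at chr11:54978962-55033471. Its ranges nearly coincided, from 38.5 through 41.9 to 56.0 FPKM in wild-type and from 39.1 through 44.4 to 52.4 FPKM in *Gpr180*KO livers, a log2 difference of -0.02 ± 0.09 (SE). *Anxa11*, which binds the penta-EF-hand protein encoded by *Pdcd6*, lies at chr14:25842155-25886804. It ran from 13.3 through 17.6 to 19.0 FPKM in wild-type and from 12.4 through 16.3 to 19.1 FPKM in *Gpr180*KO livers, a log2 difference of -0.12 ± 0.09 (SE).

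The mean was lower in *Gpr180*KO livers for all 10 genes, with a median log2 difference of -0.35. Without KO51 the log2 differences of *Anxa2*, *Anxa3*, *Anxa4*, *Anxa6*, *Anxa7* and *Anxa11* were -0.68, -0.30, -0.19, -0.03, -0.33 and -0.12. The median of all genes tested was -0.13, so most genes leaned to lower values with the deletion on the FPKM scale. When libraries were scaled by the median of ratios the all-gene median was -0.01 and the members' median -0.23, and *Anxa6* and *Anxa11* turned to 0.10 and 0.01. In the limma fit 4 of the 10 genes (*Anxa1*, *Anxa5*, *Anxa7* and *S100a11*) were called lower at an adjusted p below 0.05, beside 4.28% of all genes tested, and 0 were called higher, beside 0.452%. With median-of-ratios scaling *Anxa5* and *S100a11* were called, beside 1.58% of all genes, and with the series as a block the same number as in the first fit, 4, beside 9.52%. Nothing is read from these counts, since the group was chosen on this contrast.

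For 0 of the 10 genes was every *Gpr180*KO liver below every wild-type liver, beside 0.175% of all genes tested. Within series 1 this held for 6 genes (*Anxa1*, *Anxa3*, *Anxa4*, *Anxa5*, *Anxa7* and *S100a11*), beside 11.5%, and within series 2 for 0, beside 5.5%. Of the wild-type livers, W157 had the lowest wild-type value of *Anxa1*, *Anxa2*, *Anxa5*, *S100a10* and *S100a11*, and W133 the highest wild-type value of these genes in series 2, for example 65.6 against 166 FPKM of *Anxa5* and 24.8 against 106 FPKM of *S100a11*. Both are mice of series 2.

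**Figure D3:**
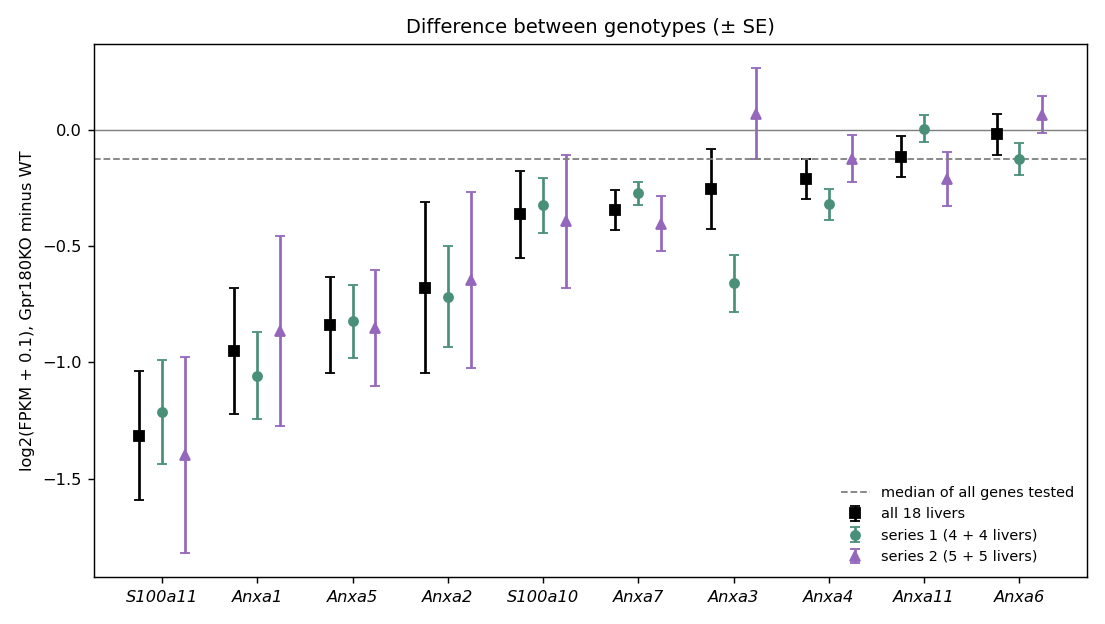
Difference in log2(FPKM + 0.1) between *Gpr180*KO and wild-type livers for the 10 genes, ± SE, over all 18 livers (squares), in series 1 (circles) and in series 2 (triangles), with the median of all genes tested as a dashed line at -0.13. *S100a11*, *Anxa1*, *Anxa5*, *Anxa2*, *S100a10* and *Anxa7* lie below the line in both series, while *Anxa3* lies at -0.66 in series 1 and 0.07 in series 2.

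Whether the genotype difference itself differed between the series was tested with the interaction term of limma, which the choice of genes did not use. It was called for 0 of the 10 genes, beside 0% of all genes tested, and 833 of the 10835 genes had an unadjusted p below 0.05. Only *Anxa3* among the members had one. Its interaction in limma was 0.73 ± 0.25 on the log2 scale (adjusted p = 0.581), and *Anxa3* ranged from 4.76 to 5.43 FPKM in the wild-type livers of series 1 and from 2.32 to 4.27 in those of series 2. The remaining interactions of the members lay between -0.22 for *Anxa11* and 0.20 for *Anxa4*, with SEs of 0.12 to 0.53.

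The difference between the series was also outside the choice of genes. Within genotype, *Anxa2* was 2.46-fold higher in series 1 than in series 2 (log2 difference, series 2 minus series 1, -1.30 ± 0.24 SE, limma adjusted p = 0.00103). In wild-type livers it ranged from 74.3 to 147 FPKM in series 1 and from 18.9 to 77.0 FPKM in series 2. In *Gpr180*KO livers it ranged from 58.5 to 90.8 FPKM in series 1 and from 19.0 to 42.9 FPKM in series 2, with no overlap. *Anxa6*, with almost no genotype difference, ranged from 48.7 to 56.0 FPKM in the wild-type livers of series 1 and from 38.5 to 41.9 FPKM in those of series 2 (log2 difference -0.28 ± 0.06 SE, limma adjusted p = 0.00351). On the log2 scale, differences between the series, taken separately in each genotype, made up 74.8% of the within-genotype variance of *Anxa6*. The share was 62.7% for *Anxa2* and 19.5% for *S100a11*. These shares are not corrected for the extra means fitted, so they would exceed 0 even without a series difference.

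All 10 genes were lower in series 2, with a median log2 difference of -0.41 against -0.11 for all genes tested, which also leaned lower. Of the 10, 5 passed the test, beside 19.1% of all genes tested. They were *Anxa2*, *Anxa6*, *Anxa5* (-0.61 ± 0.16, adjusted p = 0.0107), *Anxa4* (-0.23 ± 0.07, adjusted p = 0.0274) and *Anxa3* (-0.43 ± 0.15, adjusted p = 0.0402), by limma with Benjamini-Hochberg adjustment. The count moved with scaling and with 1 library. With median-of-ratios scaling 2 genes passed, *Anxa2* (-1.19, adjusted p = 0.0024) and *Anxa5* (-0.50, adjusted p = 0.029), beside 9.04% of all genes. Without KO51 all 10 passed, beside 30.4%. Without W133 8 passed, beside 20.7%. Without W317 or W318 3 passed, beside 14.5% and 15.8%. Mice, extraction and sequencing of the series cannot be told apart from the labels.

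Within the 4 combinations of genotype and series, some members varied together from liver to liver. After the mean of each combination was subtracted, correlations of log2(FPKM + 0.1) over the 18 livers were computed for the 45 pairs of members and 3 pairs with known binding partners, with 100000 permutations within the combinations and adjustment over the 48 pairs. Pearson's r of the 45 pairs ran from 0.01 to 0.93 with a median of 0.50. Of the 48 pairs 13 passed, all with a positive r. Among them were all 10 pairs that can be made of *Anxa1*, *Anxa2*, *Anxa5*, *S100a10* and *S100a11*, a grouping seen in the data. For these 10 pairs r ran from 0.71 to 0.93, and the adjusted permutation p was at most 0.00245 (0.00422 with median-of-ratios scaling). Pairs of other genes were not tested, so whether members followed each other more closely than other genes do is not known.

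*Anxa2* and *Anxa5* had the highest r, 0.93 (permutation p = 2e-05, adjusted p = 0.00048), with Spearman's rho of 0.89 (permutation p = 3e-05, adjusted p = 0.00144). Without the 2 livers farthest from the median of *Anxa2* (W133 and W157) r was 0.86. It was 0.90 in series 1 and 0.93 in series 2. *Anxa2* and its partner *S100a10* gave r = 0.71 (permutation p = 0.00043, adjusted p = 0.00229) and rho = 0.76 (permutation p = 0.00216, adjusted p = 0.013), with r = 0.66 without the same 2 livers, 0.57 in series 1 and 0.74 in series 2. *Anxa1* and its partner *S100a11* gave r = 0.84 (permutation p = 0.00038, adjusted p = 0.00228) and rho = 0.72 (permutation p = 0.0046, adjusted p = 0.0221), with r = 0.72 without W133 and W157, 0.71 in series 1 and 0.87 in series 2. The partner pairs had no higher r than *S100a10* with *S100a11* (r = 0.87, rho = 0.84, adjusted permutation p = 0.000823 and 0.00416) or *Anxa1* with *Anxa5* (r = 0.91, rho = 0.85, adjusted permutation p = 0.00048 and 0.00264), and the differences between r values were not tested.

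The remaining members followed each other less closely. *Anxa6* and *Anxa11* passed with r = 0.59 (permutation p = 0.00575, adjusted p = 0.0251) and rho = 0.63 (permutation p = 0.00656, adjusted p = 0.0242), and *Anxa4* and *Anxa7* with r = 0.67 (permutation p = 0.0134, adjusted p = 0.0494) and rho = 0.66 (permutation p = 0.00531, adjusted p = 0.0232). Both rested in part on 2 livers: without them r was 0.44 (permutation p = 0.0566) for *Anxa6* and *Anxa11* and 0.43 (permutation p = 0.0687) for *Anxa4* and *Anxa7*, and the latter pair did not pass with median-of-ratios scaling (adjusted permutation p = 0.124). *Anxa3* passed with none of the others, its highest r being 0.63 with *S100a11* (adjusted permutation p = 0.068). Of the partner pairs from outside the group, *Anxa2* and *Ahnak*, which encodes a giant scaffold held by the annexin A2 complex, passed with r = 0.73 (permutation p = 0.00704, adjusted p = 0.0282) and rho = 0.68 (permutation p = 0.0101, adjusted p = 0.0303). It did not pass without W318, W131, W156, W157, KO321 or KO51, with the lowest r, 0.59, without W157 (adjusted permutation p = 0.0783). *Anxa7* with *Sri*, the sorcin gene, did not pass by Pearson's r (0.56, permutation p = 0.0622, adjusted p = 0.155) but did by rho (0.62, permutation p = 0.0117, adjusted p = 0.032). *Anxa11* with *Pdcd6* passed by neither (r = 0.56, permutation p = 0.0492, adjusted p = 0.131, and rho = 0.52, permutation p = 0.0403, adjusted p = 0.0806).

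**Figure D4:**
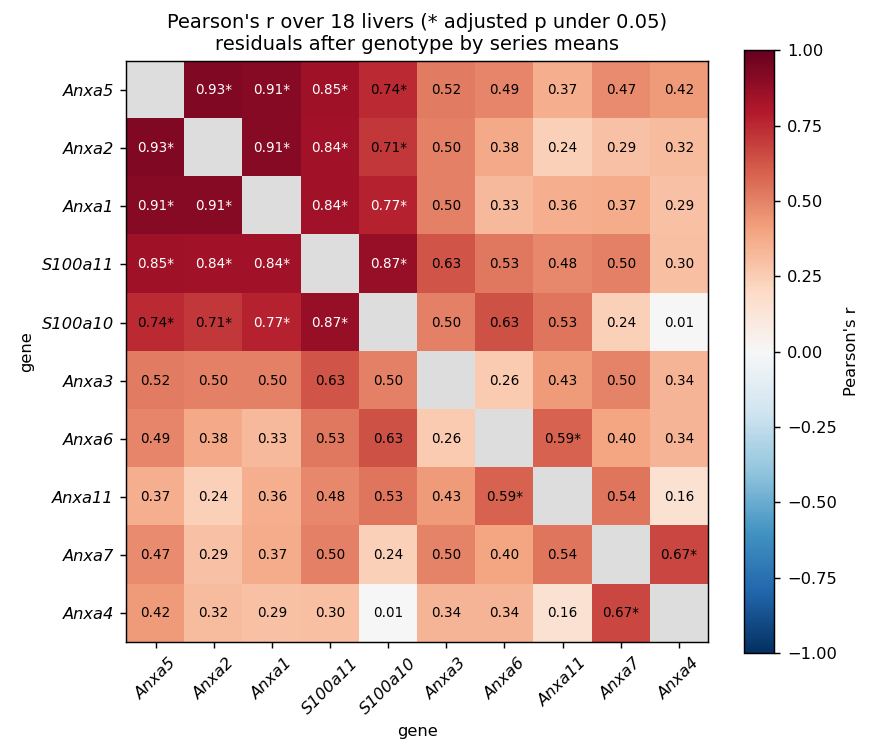
Pearson's r between the 10 genes over 18 livers after the mean of each genotype and series was subtracted, as a colour scale from -1 (blue) to 1 (red), with stars for an adjusted permutation p below 0.05. The block of *Anxa5*, *Anxa2*, *Anxa1*, *S100a11* and *S100a10* is at 0.71 to 0.93, and *Anxa4* with *S100a10* is at 0.01.

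Among the 10825 tested genes outside the group, the 5 with the highest r to *Anxa5* by the same measure over 18 livers were *Ifi27l2b* (0.950), *Ly6d* (0.945), *Col1a2* (0.935), *Tmem43* (0.932) and *Col3a1* (0.926). *Col1a2* and *Col3a1* encode chains of fibrillar collagen. The 5 nearest to *Anxa2* were *Tmem43* (0.940), *Tax1bp3* (0.935), *Maged2* (0.928), *Lcn2* (0.916) and *Pgam1* (0.914). These are descriptions, with the highest values picked from all genes. *Anxa5* and *Anxa2* with each other were at 0.927, so genes outside the group followed them as closely as any member did.

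Of 45 related genes in 6 lists, 28 had a mean of at least 1 FPKM, and their median log2 difference was -0.22 against -0.13 for all genes tested. Of the 28, 3 were called lower and 0 higher in *Gpr180*KO livers, beside 4.28% and 0.452% of all genes, and 13 had an unadjusted p below 0.05 in either direction, beside 22.2% of all genes. With the series as a block 10 were called lower, beside 9.52%, and with median-of-ratios scaling 1 (*S100a4*), beside 1.58%. The *Gpr180*KO and wild-type livers of these comparisons are those in which *Anxa5* was picked.

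In the list of other S100 genes 1 of 7 tested was called lower. *S100a4*, a gene of fibroblasts and macrophages, fell from 6.69 ± 4.14 to 2.21 ± 0.95 FPKM (SD, n = 9 each, log2 difference -1.43 ± 0.36 SE, limma adjusted p = 0.0309). *S100a6* had a log2 difference of -1.36 (limma adjusted p = 0.0573) and the neutrophil gene *S100a8* one of -1.07 (limma adjusted p = 0.168). *S100a6* was called with the series as a block (limma adjusted p = 0.0183) and without KO51 (limma adjusted p = 0.0392), and *S100a9* with the block (limma adjusted p = 0.0369). *S100a1*, the most abundant of the list, stood at 239 ± 45.6 and 226 ± 72.8 FPKM (SD, n = 9 each, log2 difference -0.12, limma adjusted p = 0.683). The other 7 S100 genes of the list had a mean below 1 FPKM, and *S100a5*, *S100a7a* and *S100z* were listed at 0 in every library. None of the other 4 annexins reached the minimum, and *Anxa10* was listed at 0 throughout.

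Among the partners of the annexin A2 complex and the plasminogen system 0 of 6 tested were called by limma, and 2 had an unadjusted p below 0.05. *Plau*, which encodes the plasminogen activator urokinase, stood at 1.71 ± 0.63 and 1.15 ± 0.33 FPKM (SD, n = 9 each, log2 difference -0.49, limma adjusted p = 0.194). *Plg*, the plasminogen gene, stood at 684 ± 66.7 and 747 ± 80.6 FPKM (SD, n = 9 each, log2 difference 0.13, limma adjusted p = 0.344), and *Serpinf2*, which encodes the plasmin inhibitor, at 291 ± 31.3 and 337 ± 36.6 FPKM (SD, n = 9 each, log2 difference 0.21, limma adjusted p = 0.126).

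Among the genes of membrane repair and phosphatidylserine 2 of 9 tested were called lower, although with median-of-ratios scaling neither was. *Mfge8*, which bridges phosphatidylserine on dying cells to phagocytes, fell from 9.49 ± 2.53 to 5.75 ± 1.72 FPKM (SD, n = 9 each, log2 difference -0.72 ± 0.17 SE, limma adjusted p = 0.0289). *Axl*, a receptor for the same task, fell from 7.85 ± 1.66 to 5.72 ± 0.68 FPKM (SD, n = 9 each, log2 difference -0.43 ± 0.12 SE, limma adjusted p = 0.0392). Its ligand gene *Gas6* had a log2 difference of -0.79 ± 0.29 (limma adjusted p = 0.115), and was called with the series as a block (limma adjusted p = 0.0112), as were *Ano6* and *Capn1* (limma adjusted p = 0.0207 and 0.0226). Of the penta-EF-hand partners 0 of 4 tested were called, 2 having an unadjusted p below 0.05, with *Sri* at -0.23 ± 0.07 (limma adjusted p = 0.0741) and *Pdcd6* at -0.00 ± 0.12 (limma adjusted p = 0.991). With the block *Sri* and *Gca* were called (limma adjusted p = 0.0194 and 0.0131), and without KO51 *Sri* was (limma adjusted p = 0.0434). Of the annexin A1 receptors 0 of 2 tested were called and 0 had an unadjusted p below 0.05, with *Fpr1* at 4.03 ± 2.43 and 3.44 ± 0.67 FPKM (SD, n = 9 each).

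**Figure D5:**
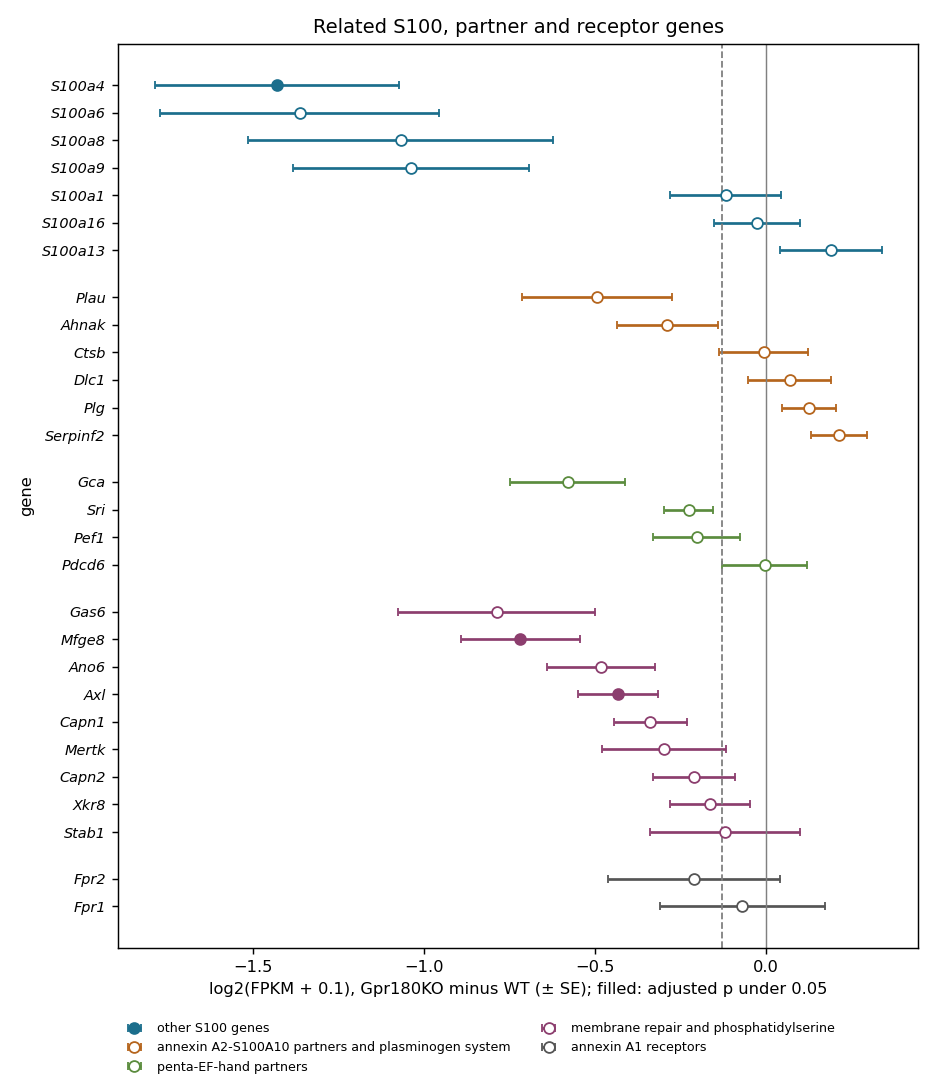
Difference in log2(FPKM + 0.1) between *Gpr180*KO and wild-type livers (x axis, ± SE) for the 28 tested genes of 5 lists, coloured by list, with filled points for a limma adjusted p below 0.05 and the median of all genes tested as a dashed line. The 3 filled points are *S100a4* at -1.43, *Mfge8* at -0.72 and *Axl* at -0.43.

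Markers of the cell types that could carry annexins were measured in the same livers. Of all genes tested 4.28% were called lower, a share to set beside each count below. Of 10 stellate cell and fibroblast markers 5 were called lower by limma (*Col1a1*, *Col1a2*, *Col3a1*, *Dcn* and *Pdgfrb*). *Lrat*, *Des*, *Acta2*, *Reln* and *Rgs5* were not, although *Reln* was with the series as a block (limma adjusted p = 0.015). The sum of the 10 was 150 to 303 FPKM in wild-type and 93.3 to 153 FPKM in *Gpr180*KO livers, with 7 of 9 *Gpr180*KO livers below every wild-type liver. *Dcn* made up most of it, at 144 ± 24.3 and 89.7 ± 12.6 FPKM (SD, n = 9 each). For *Dcn* all 9 *Gpr180*KO livers were below every wild-type liver, beside 0.175% of all genes tested. Of 7 macrophage markers 1, *Cd68*, was called lower, and the sum was 130.97 to 293 and 149 to 216 FPKM. Of 10 bile duct markers 3 were tested and 1, *Sox9*, was called lower, though not with median-of-ratios scaling (limma adjusted p = 0.121). *Sox9* averaged 1.44 and 0.86 FPKM, and *Tspan8*, not called, 1.82 and 0.78 FPKM in wild-type and *Gpr180*KO livers. Both passed the minimum mean only through the wild-type livers, which favours a lower call. The sum of the bile duct markers was 10.98 to 20.6 and 8.12 to 10.8 FPKM, with no overlap. Hepatocyte markers (0 of 10 called, 17530 to 21158 and 19429 to 32352 FPKM), endothelial markers (0 of 8 called, 103 to 164 and 90.6 to 144 FPKM) and neutrophil markers (0 of 1 tested called, 1.27 to 7.30 and 1.35 to 3.44 FPKM, with *Camp*, *Ltf* and *Mpo* at a median of 0) overlapped. Lymphocyte markers summed to 1.75 to 5.54 and 1.57 to 3.51 FPKM and mesothelial markers to 0.619 to 2.30 and 0.747 to 3.11 FPKM, with 0 markers tested. Adipocyte markers summed to 1.60 to 46.7 and 4.44 to 279 FPKM, with *Plin1* listed at 0 in every library, *Adipoq*, *Lep* and *Retn* at a median of 0, and *Cfd*, the 1 tested, not called. The part of these cells in the annexin differences was not tested.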

How the data were processed

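The deposited tables, 1 per mouse, hold FPKM values that the authors obtained from single reads of poly(A) libraries aligned to mm10 (GRCm38) with the TopHat Alignment application, per the submitters' processing notes, the labels and the study's methods. The tool that estimated the FPKM and the gene annotation are not given in the sources used here. The FPKM of entries that share a symbol were summed, and 24 of 23352 symbols with a failed or overloaded estimate, listed at 0, were dropped. No counts were used, so the depth of single values is unknown. Relative depth was taken from the most common ratio of low FPKM values to those of W317.

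Log2 values with a pseudocount of 0.1 FPKM entered limma 3.58.1 in R 4.3.3 (lmFit and eBayes, trend on). The fit held the 10835 genes whose mean over 18 libraries was 1 FPKM or more, with Benjamini-Hochberg adjustment over all of them and a threshold of 0.05. Fold changes on this scale understate those of low genes. The series effect was fitted with genotype as a term, and the interaction with both. Mice of a genotype were separate animals. Permutation tests and sequence searches used Python 3.11.15, numpy 2.4.6, pandas 2.3.3 and scipy 1.17.1, and figures matplotlib 3.10.9. The fits and the correlation test were tested on simulated data. Promoter sequences came from RefSeq (GRCm38.p6) and gene positions from the tables.

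The members and lists were chosen with earlier results of these data known. Named genes were *Gpr180*, the members, up to 4 genes per related list (those past the threshold with the largest difference, then the most abundant) and the 5 genes nearest to *Anxa5* and *Anxa2*. *S100a6*, *S100a8*, *S100a9*, *Plau*, *Gas6*, *Ano6*, *Capn1*, *Gca*, *Sri*, *Pdcd6* and the markers were named after their values were seen. Of the genes first listed, 2 are not reported here and entered no list count. Alternatives were pseudocounts of 1 and 0.01, minimums of 0.1, 5 or none, 3 other scalings, the series as a block or alone, leaving out each library, weights per library and eBayes with the trend off. Alternatives chosen after seeing the data were the interval midpoint and the block together with median-of-ratios scaling.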

Additional observations from a re-analysis of the deposited data

Results flagged for a closer look

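In 22 groups examined (the 10 members and *Gpr180* in each genotype), 1 library stood apart from the rest of its group by Dixon's criterion for 9 samples. Chance flags about 1 in 20 groups. It was the wild-type mouse W134 with 13.3 FPKM of *Anxa11*, against 16.9 FPKM in the next lowest wild-type liver and 19.0 in the highest. W134 was also the lowest wild-type liver for *Anxa3*, *Anxa4*, *Anxa6* and *Anxa7*. KO53, with 12.4 FPKM of *Anxa11*, was lower still.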

How the results depend on the processing

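The 513 genes called in all became 837 and 238 with minimums of 0.1 and 5 FPKM, 283 and 322 with median-of-ratios and 75th percentile scaling, 1153 with the series as a block, 0 with series 2 alone (2019 had an unadjusted p below 0.05) and 1331 with weights per library, and 132 to 922 when each library was left out. The 4 members called lower became 2 with either scaling, 6 and 0 in series 1 and 2 alone, and 6 with weights per library. They became 1 to 4 when each library was left out. Of the 10835 genes tested, 464 were called lower in the first fit, and 171 and 214 with these scalings. In series 1 and 2 alone the number was 488 and 0, with weights 1161, and 116 to 844 when each library was left out. *S100a11* was called without each library in turn, *Anxa5* in 11, *Anxa7* in 10 and *Anxa1* in 5 of these 18 fits. Without W317, W318, W320, W133, KO52, KO53 or KO54 *S100a11* alone was called, and without W156 2 members were. These member counts rank nothing and support nothing, since the group was chosen on this contrast. The 3 related genes called lower became 7 with the minimum of 0.1 FPKM, 1 with median-of-ratios scaling and 10 when the series was a block. They became 7 and 0 in series 1 and 2 alone, 9 with weights, and 6 with median-of-ratios scaling and the block together (chosen after seeing the data). When each library was left out they became 0 to 9 (0 without W317, W318, W133, KO52 or KO53, 1 without KO54, 5 without KO51, 9 without W157). Of all genes tested, 776 of 14016 were called lower with the minimum of 0.1 FPKM, where more of the related genes were tested. With the block 1031 of 10835 were called lower, 390 with median-of-ratios scaling and the block, 689 without KO51 and 844 without W157. The 2479 genes called between the series became 1849 to 4542 when each library was left out, the highest without KO51, and the 0 genes with an interaction 0 to 1, with 1 without W157 or KO321. The 6 pairs of neighbouring levels told apart in wild-type livers became 6 to 7 when each library was left out, and in *Gpr180*KO livers 5 were. The 13 correlated pairs became 42 when only genotype means were subtracted and 11 to 18 when each library was left out. *Gpr180* was at 22.6 to 24.9% of its wild-type level when each library was left out, 25.7% with median-of-ratios scaling and 22.4% in series 1 alone. The cause of these moves was not tested.

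Of the members, *Anxa6* changed sign to 0.10 with median-of-ratios scaling (also with the block), 0.074 with 75th percentile scaling and 0.064 in series 2 alone, and it ran from -0.049 to 0.019 when each library was left out, above 0 without W317, W318, W320 or KO54. *Anxa11* changed to 0.0082 with median-of-ratios scaling (also with the block) and 0.0046 in series 1 alone, and *Anxa3* to 0.069 in series 2 alone. None of these was called. The correlation of *Anxa7* with *Sri* became -0.088 when only genotype means were subtracted. No paired analysis was possible because the numbers in the titles name mice, and only 2 of them (in W319 with KO319 and W320 with KO320) occur in both genotypes. With 9 livers per genotype and unknown counts, differences as small as those of *Anxa6* and *Anxa11* were not resolved.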
